A study of Mus musculus with 14 samples.

Results

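Endothelial cells of a vessel wall are held together by adherens, tight and gap junctions, and 10 genes that encode proteins of these contacts were followed here across sorted cells of mouse bone marrow. The genes were Cdh5, Pecam1, Cldn5, Tjp1, Esam, F11r, Jam2, Jam3, Gja4 and Gja5. Every probe set whose platform symbol was exactly one of these names was taken, which gave 17 of the 45101 probe sets on the array and 10 of 18193 gene symbols. Jam2 had 5 probe sets, Cdh5, Jam3 and F11r had 2 each, and the other genes had 1 each. All but Gja5, 9 genes, passed the filter on dim probe sets and entered the test across 13453 genes.

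The 14 arrays, 1 per sample, fall into 4 groups. CD31+ cells, labelled endothelial, were sorted as CD45- ter119- GFP- CD31+ from mice given G-CSF (4 arrays) and from untreated mice (4 arrays). GFP+ cells, labelled osteoblasts, were sorted as CD45- ter119- CD31- GFP+ from mice given G-CSF (3 arrays) and from untreated mice (3 arrays). All the mice were pOBcol2.3-GFP transgenics on C57BL/6J, labelled wild type and 6 to 8 weeks old, in which a fragment of the type I collagen promoter drives GFP in osteoblasts. G-CSF, the cytokine that raises neutrophil output and releases blood stem cells from marrow, was given under the skin at 250 ug per kg. The treatment lasted 5 days by the titles and the protocol of the treated arrays. The protocol of the untreated ones names vehicle and 7 days. Whether each replicate is another animal, or a pool, is not stated, and p-values cover only the spread among these arrays.

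Vascular endothelial cadherin, the product of Cdh5, binds its like on the neighbouring cell and is tied through catenins to actin. PECAM-1, the CD31 antigen, and the immunoglobulin-like proteins ESAM and JAM-A, JAM-B and JAM-C (encoded by F11r, Jam2 and Jam3) sit at the same borders, where leukocytes cross. Claudin-5, the product of Cldn5, seals tight junctions, ZO-1, the product of Tjp1, anchors them to the cytoskeleton, and connexins 37 and 40, the products of Gja4 and Gja5, form gap junctions that are best known from arteries. In the marrow the cells so joined line the sinusoids through which blood cells leave.

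The labels were first set against markers. Kdr, Tek, Vwf and other endothelial markers, 12 in all, were higher in CD31+ than in GFP+ arrays in 12 of 12 cases in both conditions. Markers of the other sort were not at 0, and osteoblast markers separated the untreated sorts poorly. Of 5 measured, 1 (Alpl) was called lower in CD31+ than in GFP+ cells of untreated mice, and 5 after G-CSF. Over all genes 13.6% and 17.5% were called lower. Untreated Col1a1 averaged 15.33 log2 units in CD31+ and 15.56 in GFP+ arrays. The 5 measured osteoblast markers averaged 9.01 to 12.06 log2 units in G-CSF and 11.31 to 13.09 in untreated CD31+ arrays, against 13.83 to 13.99 in G-CSF and 12.64 to 14.52 in untreated GFP+ arrays. Ptprc, which encodes the CD45 that both gates removed, read 10.97 to 11.83 log2 units in G-CSF and 9.10 to 10.54 in untreated CD31+ arrays, and 11.33 to 13.81 in G-CSF and 9.27 to 12.05 in untreated GFP+ arrays. Its change was not called in either sort, with adjusted p of 0.269 in CD31+ and 0.290 in GFP+ cells in limma. Untreated CD31+ replicate 1 stood apart in a muscle list, at 13.29 log2 units against 7.84 to 9.33 in the other 3. Untreated GFP+ replicate 2 stood apart from its group in neutrophil genes, at 14.13 against 11.18 and 11.52 in the other 2. It was also the lowest of that group in osteoblast markers. The neutrophil list was high in the other groups too. It averaged 13.27 to 14.11 log2 units in G-CSF GFP+ arrays. In CD31+ arrays it averaged 13.35 to 14.11 in G-CSF and 12.55 to 13.39 in untreated mice. In bulk RNA, fewer cells of a type and less RNA per cell cannot be told apart. Each array's trimmed mean was close to 500, but its median log2 value averaged 6.63 in G-CSF and 6.82 in untreated CD31+ arrays, against 7.02 in G-CSF and 7.05 in untreated GFP+ arrays. Centring each array on its median therefore moves all differences between CD31+ and GFP+ cells upward, and that setting is named where it matters.

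Promoter windows from 250 bases before to 50 bases after the start were matched in RefSeq (build GRCm38.p6) for 5 of the 10 genes, Cldn5, Tjp1, F11r, Gja4 and Gja5. The windows of 3 genes are shown because they cover the tight, junctional adhesion and gap junction genes, with Cldn5 and F11r higher in CD31+ than in GFP+ cells and Gja5 below the filter. The windows lie at chr16:18776597-18776896 for Cldn5, chr1:171437311-171437610 for F11r and chr3:97032152-97032451 for Gja5, all on the plus strand. Capitals mark any match, on either strand, to AGGAAG, a form of the site of ETS factors, to AGATAA, a form of the GATA factor site, to AACAAT, a form of the SOX factor site, or to CCACCC, a form of the KLF factor site. Factors of these families are known to act in endothelial cells.
Cldn5: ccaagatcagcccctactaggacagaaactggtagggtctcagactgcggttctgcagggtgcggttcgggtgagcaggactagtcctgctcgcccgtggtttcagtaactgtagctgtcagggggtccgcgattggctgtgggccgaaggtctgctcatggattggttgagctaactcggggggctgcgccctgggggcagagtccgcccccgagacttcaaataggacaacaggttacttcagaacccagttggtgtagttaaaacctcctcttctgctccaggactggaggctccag
F11r: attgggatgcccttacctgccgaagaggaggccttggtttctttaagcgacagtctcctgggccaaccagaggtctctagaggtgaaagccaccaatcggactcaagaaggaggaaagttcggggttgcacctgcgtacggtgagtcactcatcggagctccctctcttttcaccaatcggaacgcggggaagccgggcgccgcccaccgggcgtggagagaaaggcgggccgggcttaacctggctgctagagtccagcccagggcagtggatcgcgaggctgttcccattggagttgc
Gja5: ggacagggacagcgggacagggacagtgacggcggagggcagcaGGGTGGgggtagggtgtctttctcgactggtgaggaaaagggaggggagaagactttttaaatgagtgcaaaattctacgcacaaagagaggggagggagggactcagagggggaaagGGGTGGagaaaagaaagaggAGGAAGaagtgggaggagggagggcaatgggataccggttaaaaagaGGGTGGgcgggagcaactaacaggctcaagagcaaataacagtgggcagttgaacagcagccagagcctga
None of the 4 motifs stood in the windows of Cldn5, F11r or Gja4. Gja5 held 1 AGGAAG, 68 bases before the start, and 3 CCACCC, and Tjp1 held 1 CCACCC. Of all 32851 windows of 300 bases, 35.4% held AGGAAG, 11.2% AGATAA, 10.7% AACAAT and 31.5% CCACCC, so that these matches describe the letters of the windows and no more. GC content was 58.3% for Cldn5, 60.3% for F11r, 55.7% for Gja5, 62.0% for Gja4 and 65.3% for Tjp1, against a median of 52.7% over all windows.

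**Figure D1:**
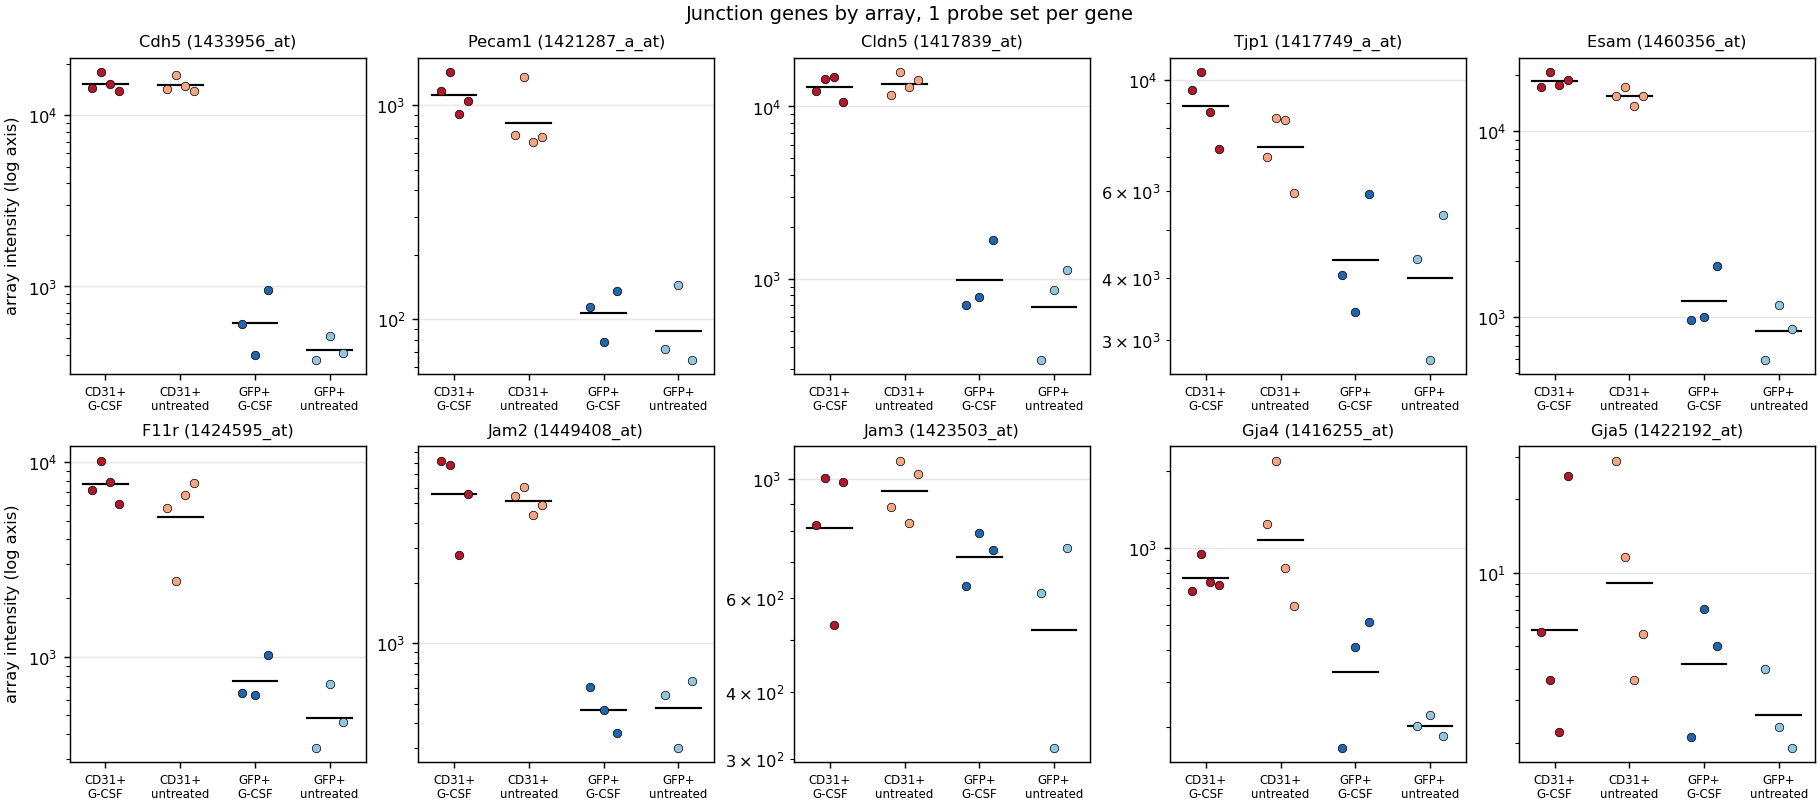
Array intensity (log axis) of 1 probe set for each of the 10 junction genes in the 4 groups; each point is an array and each black line the group's geometric mean. For Cdh5, Pecam1, Cldn5, Tjp1, Esam, F11r, Jam2 and Gja4 every CD31+ array lies above every GFP+ array, whereas Jam3 overlaps and Gja5 is at 28.9 or less on every array.

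The first comparison asks how far the junction genes mark CD31+ against GFP+ cells, at rest and after G-CSF. All 9 measured genes, Pecam1 of the sort marker among them, were higher in CD31+ than in GFP+ cells of untreated mice, by a median log2 difference of 3.39, against a median near 0 over all genes. After G-CSF 8 of 9 were higher, with a median of 3.33, against -0.02 over all genes. The exception was Jam3. None was lower in either condition. Of all 13453 genes, 12.8% were called higher and 13.6% lower in CD31+ cells of untreated mice, and 14.4% higher and 17.5% lower after G-CSF. Calls are at an adjusted p under 0.05 in limma, adjusted over all genes. The arrays of CD31+ and GFP+ cells did not overlap for 9 of 9 genes in untreated mice and 8 of 9 after G-CSF, against 32.6% and 39.4% of all genes. Pecam1, whose difference was set by the gate, is in all these counts and medians, and its part of them is no separate result.

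Cdh5, the cadherin of the adherens junction, differed most. Its intensity was 14390.1, 17754, 15251 and 13764 in G-CSF CD31+ arrays, 14169.5, 17261, 14803 and 13789 in untreated CD31+ arrays, 600.2, 398 and 952 in G-CSF GFP+ arrays and 374, 514 and 409 in untreated GFP+ arrays. The CD31+ arrays lay within a narrow band and far above every GFP+ array. The log2 difference was 4.60 ± 0.24 (SE) after G-CSF and 5.07 ± 0.24 in untreated mice, 24.3-fold and 33.7-fold, with adjusted p of 8.76e-09 and 6.51e-09 in limma. By p-value Cdh5 ranked 9 of 13453 genes after G-CSF and 3 in untreated mice. The second Cdh5 probe set was dim, at 147 to 197 in G-CSF and 121 to 177 in untreated CD31+ arrays, against 2.43 to 62.5 in G-CSF and 2.76 to 38.6 in untreated GFP+ arrays. It was also higher in CD31+ cells, by 2.42 after G-CSF and 2.29 in untreated mice.

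Pecam1 encodes CD31, the antigen on which the cells were sorted, so its difference between the sorts was set by the gate and is given as a description. It read 1162, 1423, 914 and 1041 in G-CSF CD31+ arrays, 723, 1352, 675 and 714 in untreated CD31+ arrays, 114, 78.2 and 136 in G-CSF GFP+ arrays and 72.4, 145 and 64.6 in untreated GFP+ arrays. Untreated CD31+ replicate 2 stood apart, at 1352 against 675 to 723 in the other 3. The megakaryocyte list, of cells that carry CD31, was highest on that array too, at 10.40 log2 units against 8.25 to 8.94 in the other 3. So were the endothelial, arterial, B cell and pericyte and smooth muscle lists. The part of these lists in the result was not tested. The log2 difference between the sorts was 3.21 ± 0.30 after G-CSF and 3.01 ± 0.30 in untreated mice.

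Cldn5, the main claudin of endothelial tight junctions, read 12363, 14475, 14876 and 10614 in G-CSF CD31+ arrays and 11588, 15753, 12925 and 14158 in untreated CD31+ arrays. It read 708, 781 and 1686 in G-CSF GFP+ arrays and 339, 861 and 1126 in untreated GFP+ arrays. No CD31+ array came near the GFP+ arrays, while the GFP+ arrays differed widely among themselves. CD31+ cells exceeded GFP+ cells by 3.71 ± 0.35 log2 units after G-CSF and 4.26 ± 0.35 in untreated mice, 13.1-fold and 19.1-fold, with adjusted p of 1.76e-06 and 7.13e-07 in limma.

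Tjp1, whose product ZO-1 is a scaffold in many cell types, differed much less. Its intensity was 9562, 10367, 8626 and 7274 in G-CSF CD31+ arrays, 6992, 8391, 8316 and 5943 in untreated CD31+ arrays, 4053, 3420.0 and 5907 in G-CSF GFP+ arrays and 4370.2, 2742 and 5346 in untreated GFP+ arrays. The lowest CD31+ array, at 5943, lay just above the highest GFP+ array, at 5907. On the log2 scale the difference was 1.03 ± 0.25 after G-CSF and 0.87 ± 0.25 in untreated mice, with adjusted p of 0.00473 and 0.0158 in limma. Without untreated GFP+ replicate 2, the array of its group lowest in osteoblast and highest in neutrophil genes, the untreated difference was 0.60 with an adjusted p of 0.0604.

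Esam, an immunoglobulin-like adhesion molecule of endothelial tight junctions and platelets, read 17225, 20676, 17633 and 18910.3 in G-CSF CD31+ arrays and 15449, 17188, 13652 and 15372 in untreated CD31+ arrays. It read 966, 999 and 1887 in G-CSF GFP+ arrays and 591, 1168 and 865 in untreated GFP+ arrays. The CD31+ arrays were again far above the GFP+ arrays, by 3.91 ± 0.25 log2 units after G-CSF and 4.16 ± 0.25 in untreated mice, where it was 17.9-fold. The adjusted p was 5.30e-08 after G-CSF and 3.72e-08 in untreated mice in limma.

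F11r, which encodes JAM-A, read 7207, 10176, 7853 and 6082 in G-CSF CD31+ arrays and 5774, 2459, 6750.2 and 7790.3 in untreated CD31+ arrays. It read 652, 633 and 1020.3 in G-CSF GFP+ arrays and 341, 725 and 461 in untreated GFP+ arrays. Untreated CD31+ replicate 2, with 2459, was the low array, and the same array was high in Pecam1. The log2 difference was 3.33 ± 0.36 after G-CSF and 3.39 ± 0.36 in untreated mice, 10.1-fold and 10.5-fold, with adjusted p of 5.37e-06 and 6.96e-06 in limma. A second F11r probe set, whose suffix marks possible cross-hybridisation, stayed between 4.40 and 48.6 in all arrays and was not called.

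Jam2, which encodes JAM-B, read 8196, 7744, 2748 and 5545 in G-CSF CD31+ arrays, 5432, 6029, 4388 and 4915 in untreated CD31+ arrays, 606, 467 and 354 in G-CSF GFP+ arrays and 552, 301 and 647 in untreated GFP+ arrays. G-CSF CD31+ replicate 3 was the low array of its group on 4 of the 5 Jam2 probe sets. On that array the arterial marker list was also the lowest of its group, at 10.87 against 11.27 to 11.67 log2 units. Other lists were lowest there too, among them the pericyte and smooth muscle list, at 10.64 against 10.99 to 11.73. A link of these lists to Jam2 was not tested. The difference on the log2 scale was 3.54 ± 0.35 after G-CSF and 3.39 ± 0.35 in untreated mice, with adjusted p of 2.28e-06 and 5.04e-06 in limma. The 4 brighter probe sets of the gene gave differences of 3.25 to 4.03 after G-CSF and 3.39 to 3.67 in untreated mice. The 5th was dim and gave 0.79 ± 0.31 after G-CSF and 0.93 ± 0.31 in untreated mice, with adjusted p of 0.0818 and 0.0484 over all single probe sets in limma.

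Jam3, which encodes JAM-C, was the gene of the family that least separated the sorts. It read 822, 1004, 534 and 988 in G-CSF CD31+ arrays, 886, 1084, 830.1 and 1021 in untreated CD31+ arrays, 631, 792 and 737 in G-CSF GFP+ arrays and 614, 315 and 743 in untreated GFP+ arrays. The treated groups overlap, whereas the untreated ones do not. In log2 units the difference was 0.18 ± 0.28 after G-CSF, with a 95% interval of -0.41 to 0.77 and an adjusted p of 0.679. In untreated mice it was 0.84 ± 0.28, with an adjusted p of 0.0371 in limma, and without untreated GFP+ replicate 2 it was 0.48 with an adjusted p of 0.148. It also missed the threshold without any one of 4 other arrays, untreated GFP+ replicate 1 and untreated CD31+ replicates 1, 2 and 4, with adjusted p of 0.0518 to 0.0881. The other Jam3 probe set was dim and not called in either condition.

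Gja4, which encodes connexin 37, read 679, 947, 735 and 715 in G-CSF CD31+ arrays and 1239, 2202, 839 and 592 in untreated CD31+ arrays. It read 166, 411 and 515 in G-CSF GFP+ arrays and 202, 222 and 184 in untreated GFP+ arrays. The untreated CD31+ arrays ranged from 592 to 2202, with replicate 2 highest, and of the treated GFP+ arrays 1 was low and 2 were higher. Untreated CD31+ replicate 2 was also the highest of its group in the arterial list, which does not hold Gja4, at 11.69 log2 units against at most 11.06 in the other 3. It was likewise highest in the endothelial, megakaryocyte, B cell and pericyte and smooth muscle lists. The part of these lists in the Gja4 values was not tested. The log2 difference was 1.17 ± 0.40 after G-CSF and 2.33 ± 0.40 in untreated mice, 2.25-fold and 5.04-fold, with adjusted p of 0.0343 and 0.000483 in limma. The G-CSF value depends on single arrays. It was 0.71 with an adjusted p of 0.186 without G-CSF GFP+ replicate 1, and the adjusted p was 0.0552 to 0.0856 without any one of G-CSF CD31+ replicates 2, 3 and 4.

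Gja5, which encodes connexin 40, was below the filter. Its only probe set read 5.70, 3.60, 2.20 and 25.0 in G-CSF CD31+ arrays, 28.9, 11.6, 3.60 and 5.60 in untreated CD31+ arrays, 2.10, 7.08 and 4.98 in G-CSF GFP+ arrays and 4.00, 2.31 and 1.90 in untreated GFP+ arrays. By its mean it lay at the 3.34th percentile of probe sets, so the arrays set no level for it. No difference was tested at the gene level. The promoter of the gene, shown above with its 3 CCACCC, is therefore given without a level beside it.

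**Figure D2:**
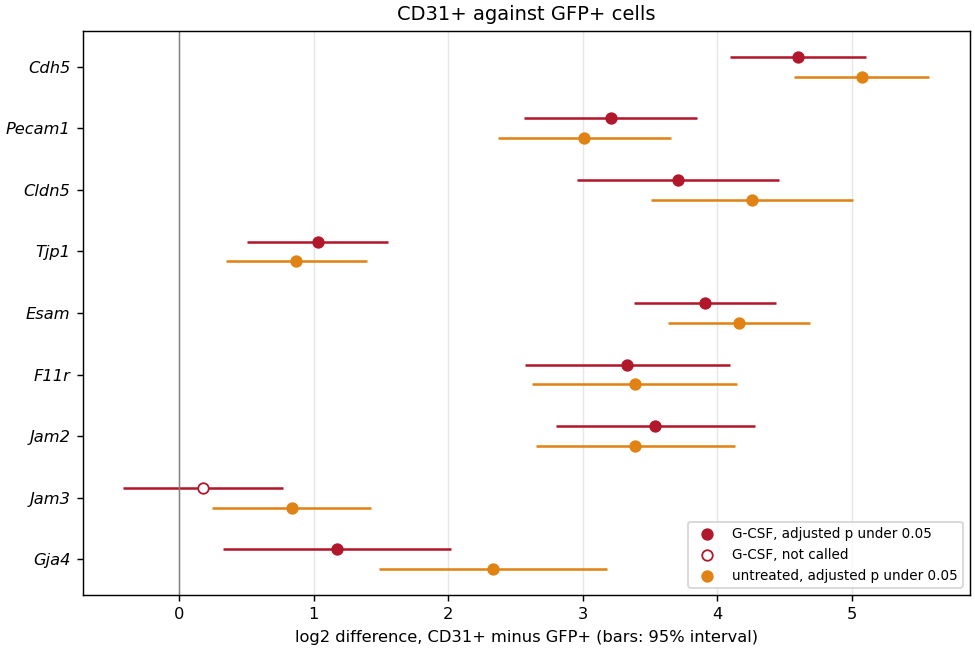
Log2 difference in CD31+ minus GFP+ cells (x axis) of the 9 measured junction genes, after G-CSF and in untreated mice; bars are 95% intervals and open points were not called. Cdh5 lies furthest to the right in both conditions, Tjp1 and Jam3 nearest to 0.

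When each probe set was tested alone, without a filter, over 34945 probe sets with 1 symbol, 12 of the 17 were higher in CD31+ cells after G-CSF and 14 of 17 in untreated mice, against 8.17% and 7.17% of all such probe sets. The 3 not called in either condition were the 2nd probe sets of Jam3 and F11r and the probe set of Gja5. Both Cdh5 probe sets and 4 of 5 Jam2 probe sets were called in both conditions. So was the Pecam1 probe set, whose difference the gate set. None of the 17 was called with G-CSF, against 0.446% of single probe sets in CD31+ cells and 0.0687% in GFP+ cells. Beside shares so small, that count does not set these probe sets apart.

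**Figure D3:**
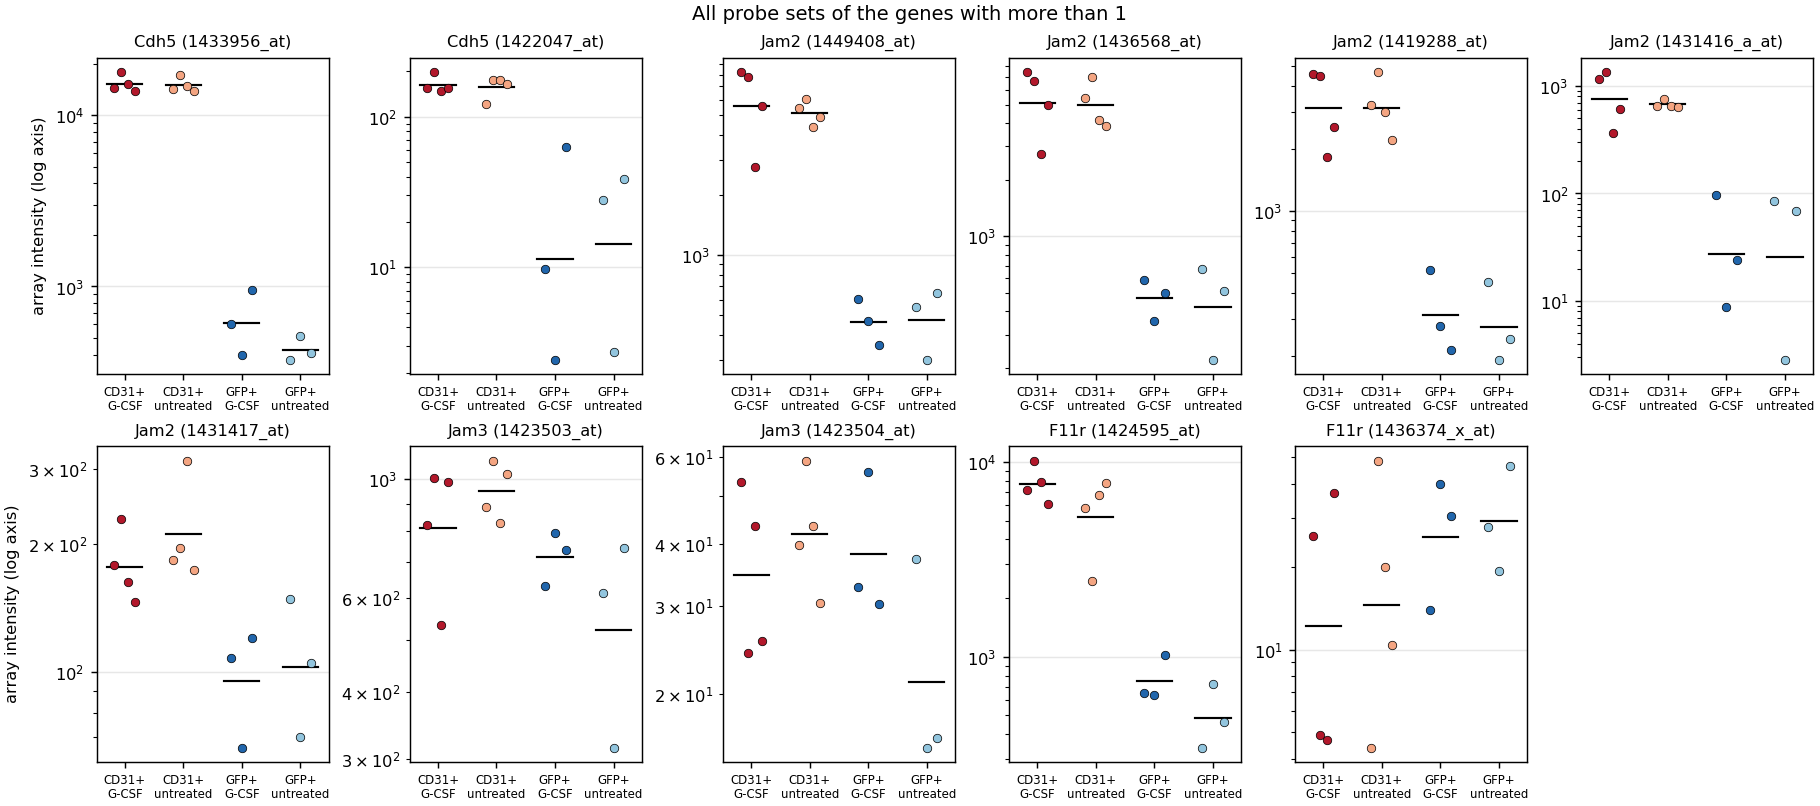
Array intensity (log axis) of all 11 probe sets of Cdh5, Jam2, Jam3 and F11r in the 4 groups, 1 point per array and a black line at the group's geometric mean. Both probe sets of Cdh5 and 4 of the 5 of Jam2 keep the CD31+ arrays apart from the GFP+ arrays, and the dim probe sets of Jam3 and F11r do not.

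The second comparison is the response to G-CSF. In CD31+ cells 0 of the 9 genes were called higher and 0 lower, against 0.453% and 1.14% of all genes, and 0 of 9 had an unadjusted p under 0.05 in limma, against 1765 of 13453 genes. The median log2 change of the 9 was 0.11, against -0.05 over all genes, with 6 of 9 above 0. Esam was the 1 gene whose treated and untreated CD31+ arrays did not overlap, against 10.3% of all genes. Its change was 0.27 ± 0.23, with a 95% interval of -0.22 to 0.76 and an adjusted p of 0.735. Cdh5 changed by 0.03 ± 0.22, with an interval of -0.44 to 0.49, and Cldn5 by -0.06 ± 0.33, with an interval of -0.76 to 0.64. The intervals of F11r (0.56, from -0.15 to 1.26) and Gja4 (-0.49, from -1.28 to 0.29) were wider. Untreated CD31+ replicate 2 was the lowest of its group for F11r and the highest for Gja4. Without untreated CD31+ replicate 2 the F11r change was 0.19 and that of Gja4 was -0.15.

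Set pair by pair, by the replicate numbers of the titles, Pecam1, Esam and Tjp1 read higher in the G-CSF than in the untreated CD31+ array in 4 of 4 pairs, and Jam3 read lower in 4 of 4. Of all genes 11% were higher and 18% lower in every such pair. The pair changes ran from 0.07 to 0.67 log2 units for Pecam1, from 0.16 to 0.37 for Esam, from 0.05 to 0.45 for Tjp1 and from -0.62 to -0.05 for Jam3. With the replicate number as a block none of these genes was called, with adjusted p of 0.464 for Pecam1, 0.532 for Esam, 0.290 for Tjp1 and 0.696 for Jam3 in limma.

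Marker lists of other cells differed between the same arrays. In CD31+ cells the erythroid list averaged 6.09 to 8.83 log2 units in G-CSF and 8.30 to 9.74 in untreated arrays, with 1 of 5 genes called, Klf1, which was lower. The B cell list averaged 6.53 to 8.18 in G-CSF and 8.00 to 9.76 in untreated CD31+ arrays, with 0 of 7 called. In GFP+ cells the erythroid list averaged 6.05 to 7.73 in G-CSF and 8.32 to 10.90 in untreated arrays, and the B cell list 6.73 to 7.21 and 7.24 to 9.71, with none of either list called. With G-CSF the neutrophil list changed by a median of 0.66 log2 units in CD31+ and 1.63 in GFP+ cells. The monocyte list changed by a median of 0.51 and 1.09. No gene of either list was called. The part of these cells and of the Ptprc levels above in the junction genes' changes was not tested.

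In GFP+ cells 0 of 9 were called higher and 0 lower, against 0.186% and 0.0446% of all genes, and 0 of 9 had an unadjusted p under 0.05, against 1191 of 13453 genes. The treated and untreated groups overlapped for all 9, whereas 9.29% of all genes had groups that did not. Of the 9 values 8 were above 0, with a median of 0.49 against -0.04 over all genes. Cdh5 changed by 0.50 ± 0.25 (95% interval -0.04 to 1.04, adjusted p = 0.609) and Esam by 0.53 ± 0.26 (-0.04 to 1.09, adjusted p = 0.602). With the replicate number as a block, Esam and Cldn5 had unadjusted p of 0.0358 and 0.0468 and adjusted p of 0.342 and 0.369 in limma. None of the 9 was higher in all 3 pairs, against 12.5% of all genes, and none was lower in all 3, against 17.5%. G-CSF replicate 3 was the highest of the 6 GFP+ arrays for 6 of 9 genes. The same array had the highest endothelial marker list of the GFP+ arrays, 10.04 log2 units against 9.32 and 9.35 in the other G-CSF and 8.97 to 9.73 in the untreated GFP+ arrays. Without it the median change was 0.18, and the part of endothelial RNA in these values was not tested.

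The change in CD31+ cells minus that in GFP+ cells was not called for any of the 9 genes, nor for any of the 13453 genes (0% higher and 0% lower), of which 622 had an unadjusted p under 0.05 in limma. None of the 9 had an unadjusted p under 0.05 in this gene-level fit. Gja4 came nearest, at -1.16 ± 0.56, with a 95% interval of -2.35 to 0.04 and an unadjusted p of 0.0564. In the limma fit over single probe sets its unadjusted p was 0.0499, and it was not called. With the replicate number as a block its unadjusted p was 0.0300 and its adjusted p 0.527 in limma. With groups of 3 and 4 arrays, changes within these intervals could not be told from 0. A call needs more, since p is adjusted over 13453 genes. Arrays were simulated with 200 changed genes, 100 by 1 and 100 by 3 log2 units. Those changed by 1 were called in 43% of cases in CD31+ cells, 22% in GFP+ cells and 10% for the difference between the changes. The changed genes were drawn from all genes, so the shares are not those of the 9 members. In the data fewer genes than 200 were called in GFP+ cells (0.186% higher and 0.0446% lower), and none for the difference. With fewer changed genes the adjustment is stricter, so there the shares may be too high.

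**Figure D4:**
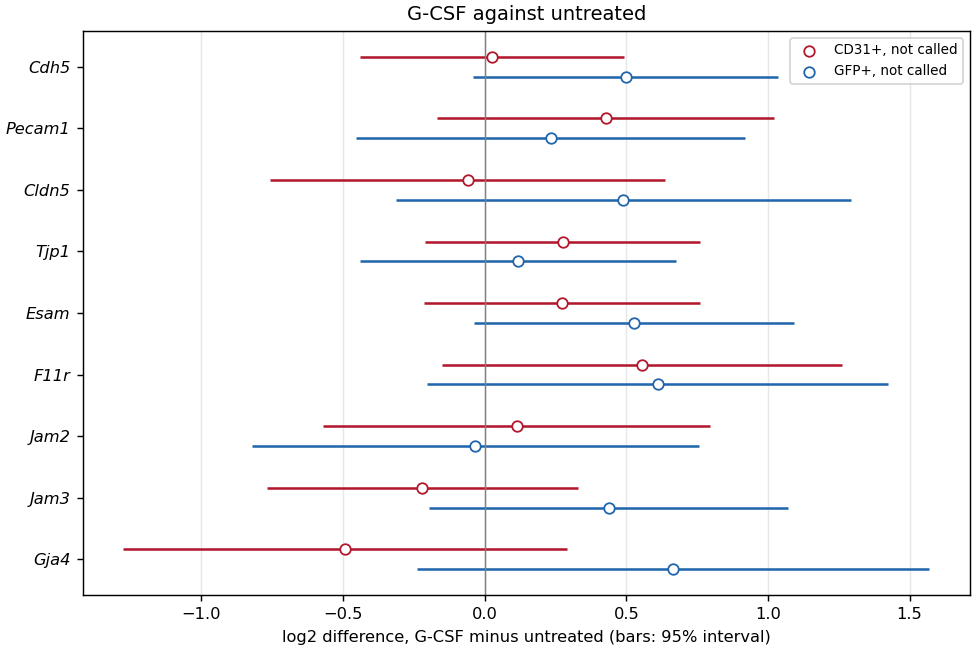
Log2 change in G-CSF minus untreated arrays (x axis) of the 9 measured junction genes in CD31+ and in GFP+ cells, with 95% intervals. Every interval crosses 0 and no gene was called.

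Other genes of the same structures were taken from 5 lists with 101 genes, of which 93 were on the array and 65 were measured. Together 26 of them were higher and 15 lower in CD31+ than in GFP+ cells after G-CSF, and 25 higher and 9 lower in untreated mice. The shares of all genes were, as above, 14.4% and 17.5% after G-CSF and 12.8% and 13.6% in untreated mice, and each list's count is to be read against them. Centring each array on its median gave 35 higher and 10 lower after G-CSF, and 30 higher and 6 lower in untreated mice.

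The adherens list held 18 measured genes, of which 8 were higher and 4 lower in CD31+ cells after G-CSF and 9 higher and 3 lower in untreated mice, with a median difference of 0.89 and 0.78. Among those that were higher in both conditions, Cdh13 (T-cadherin, a cadherin with no cytoplasmic tail) differed by 3.91 ± 0.26 after G-CSF and 3.82 ± 0.26 in untreated mice. Ptprb, which encodes the phosphatase VE-PTP that binds VE-cadherin, differed by 3.35 ± 0.22 and 3.33 ± 0.22. Afdn (afadin) differed by 3.23 ± 0.32 and 3.36 ± 0.32, and Jup (plakoglobin) by 3.25 ± 0.24 and 2.85 ± 0.24. Other genes of the list went the other way. Cdh11, the cadherin of osteoblasts, was lower in CD31+ cells by -4.51 ± 0.53 after G-CSF and -2.57 ± 0.53 in untreated mice, Arvcf, a catenin, by -1.90 ± 0.33 and -2.32 ± 0.33, and Nectin3, a nectin of adherens junctions, by -1.07 ± 0.27 and -1.08 ± 0.27. Cdh2, N-cadherin, was lower by -3.85 ± 0.78 after G-CSF, with an adjusted p of 0.00145 in limma, and its untreated difference of -1.60 ± 0.78 was not called. Ctnnb1 (beta-catenin) differed by -0.18 ± 0.20 after G-CSF and -0.15 ± 0.20 in untreated mice and was not called.

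Cdh11 was the only one of the 65 genes called with G-CSF in CD31+ cells, against 0.453% of all genes called higher and 1.14% lower. It fell by 2.31 ± 0.49 on the log2 scale (adjusted p = 0.0361 in limma). It averaged 9.08 ± 1.27 log2 units in G-CSF and 11.38 ± 0.69 in untreated CD31+ arrays (SD, n = 4 each). The osteoblast marker list moved with it in the CD31+ arrays, at 9.01 to 12.06 log2 units in the G-CSF and 11.31 to 13.09 in the untreated arrays, and its part in the result was not tested. The call rests on single arrays. It was lost without any one of untreated CD31+ replicates 1, 3 and 4 and G-CSF CD31+ replicates 2 and 3, with adjusted p of 0.0588 to 0.124, and the change ran from -2.64 to -1.71 when each array was left out. Of 26 alternatives 15 kept the call. It was also lost with median centring (adjusted p = 0.0502) and with only the CD31+ arrays in the fit (adjusted p = 0.0524), where the 1 gene called was Cldn15, higher after G-CSF. With the replicate number as a block, Cdh11, Cdh2 and Pard6g were called lower, 3 genes in place of 1.

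In GFP+ cells none of the 65 was called, against 0.186% of all genes called higher and 0.0446% lower. Where a list held no called gene, its largest changes with G-CSF were those of Pard6g (-2.00 ± 0.53), Cldn15 (1.27 ± 0.41), Panx3 (-0.50 ± 0.78), Gja1 (-0.44 ± 0.19), Alcam (-0.86 ± 0.40), Mcam (0.65 ± 0.27), S1pr1 (0.58 ± 0.31) and Rapgef3 (0.54 ± 0.20) in CD31+ cells, with adjusted p of 0.0732 to 0.890 in limma. In GFP+ cells they were those of Plekha7 (1.11 ± 0.52), Cdh1 (-0.84 ± 0.77), Cldn15 (1.54 ± 0.47), Cldn10 (-0.98 ± 0.29), Gjc1 (0.26 ± 0.36), Panx3 (-0.11 ± 0.90), Mcam (1.11 ± 0.31), Alcam (-0.79 ± 0.46), Radil (0.59 ± 0.42) and Rasip1 (0.36 ± 0.35), with adjusted p of 0.227 to 0.987.

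Of the 18 measured genes of the tight junction list 3 were higher and 7 lower in CD31+ cells after G-CSF, and 2 higher and 4 lower in untreated mice, with medians of -0.06 and -0.27. As shares of the list these were 16.7% higher and 38.9% lower after G-CSF, and 11.1% and 22.2% in untreated mice. Cldn15, a claudin that forms cation pores in gut, was higher by 2.50 ± 0.44 after G-CSF and 2.77 ± 0.44 in untreated mice, and Magi1, a scaffold, by 1.15 ± 0.20 and 1.41 ± 0.20. Marveld2 (tricellulin) was higher after G-CSF, by 1.36 ± 0.40, and its untreated difference of 0.89 ± 0.40 was not called. Pard6g, a polarity protein, was lower in CD31+ cells by -3.49 ± 0.57 after G-CSF and -1.75 ± 0.57 in untreated mice. Cldn10, another pore-forming claudin, was lower by -2.63 ± 0.27 and -2.81 ± 0.27, and Pard3, another polarity protein, by -1.95 ± 0.28 and -1.79 ± 0.28. Cldn5 thus differed in direction from Cldn10 and from Cldn1. Cldn1 was lower in CD31+ cells by -1.44 ± 0.35 after G-CSF and -1.19 ± 0.35 in untreated mice.

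Of 20 other gap junction genes 14 were on the array and 4 were measured. Gja1, which encodes connexin 43, was lower in CD31+ cells by -1.01 ± 0.20 after G-CSF and by -0.61 ± 0.20 in untreated mice, with adjusted p of 0.00132 and 0.0363 in limma. Panx3, a channel gene of bone and cartilage, was lower by -2.69 ± 0.84 after G-CSF, and its untreated difference of -2.30 ± 0.84 was not called. Gja4 and Gja1 thus lay on opposite sides in both conditions.

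Among 9 endothelial contact proteins 6 were higher and 1 lower in CD31+ cells in both conditions. Podxl (podocalyxin) differed by 3.98 ± 0.21 after G-CSF and 4.50 ± 0.21 in untreated mice, and Icam2, a leukocyte ligand of endothelium, by 3.47 ± 0.43 and 3.96 ± 0.43. Cd34, a sialomucin like podocalyxin, differed by 2.83 ± 0.26 and 2.93 ± 0.26, and Mcam, the adhesion molecule CD146, by 2.73 ± 0.29 and 3.20 ± 0.29. Alcam was the lower one in both conditions, by -1.48 ± 0.43 and -1.40 ± 0.43. Among 16 regulators of junctions 9 were higher and 1 lower after G-CSF, and 8 higher and 0 lower in untreated mice. Kdr, Tek and Robo4, all higher in both conditions, are also among the endothelial markers set against the labels above. Their part of these counts is therefore no separate result. Kdr, the VEGF receptor that signals to VE-cadherin, differed by 3.57 ± 0.23 and 4.14 ± 0.23, and Robo4, a receptor that steadies vessels, by 3.81 ± 0.25 and 3.96 ± 0.25. Rapgef3, which encodes the Rap1 activator EPAC1, differed by 3.66 ± 0.21 and 3.13 ± 0.21, Rasip1, a Rap1 effector, by 3.64 ± 0.33 and 3.77 ± 0.33, and Tek, the angiopoietin receptor, by 3.49 ± 0.22 and 3.80 ± 0.22. Src, a kinase that phosphorylates junction proteins, was lower in CD31+ than in GFP+ cells after G-CSF, by -0.80 ± 0.27. Its untreated difference of -0.53 ± 0.27 was not called.

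**Figure D5:**
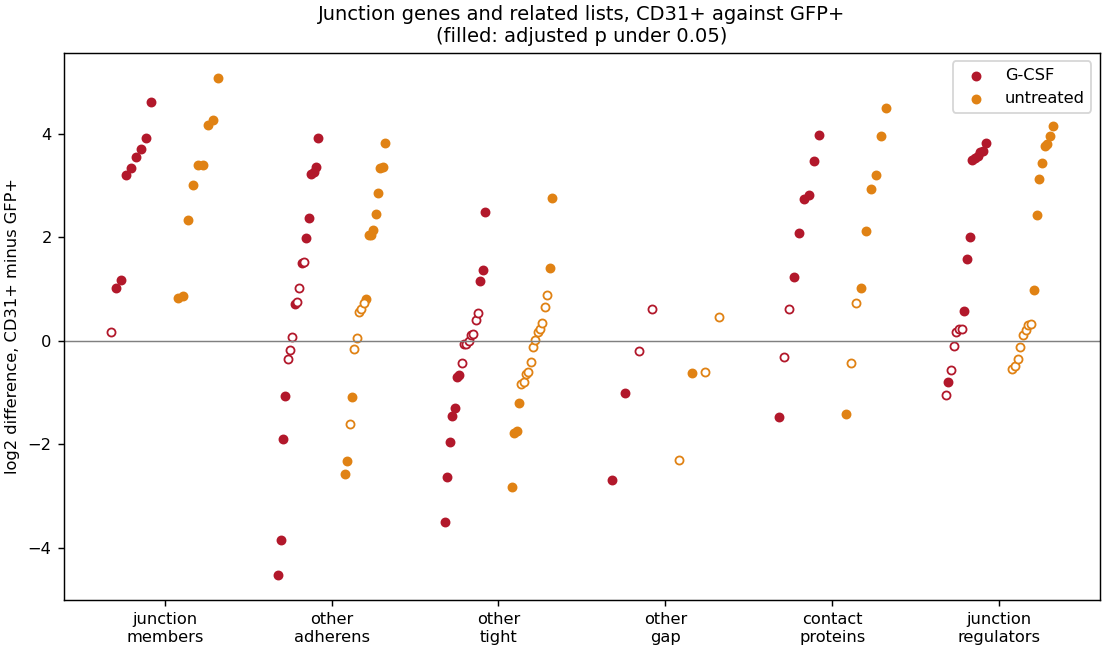
Log2 difference in CD31+ minus GFP+ cells (y axis) of the 9 measured junction genes and the measured genes of the 5 lists, after G-CSF and in untreated mice, 1 point per gene, filled where called. The junction genes, the contact proteins and the regulators lie mostly above 0, and the tight and gap lists spread on both sides.

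Across the 14 arrays the genes whose log2 values followed Cdh5 most closely were Tek, Podxl, Esam, Ecscr and Egfl7 (Pearson r of 0.995 to 0.996), with Esam itself one of the 10 genes. Those closest to Cldn5 were She, Rasgrp3, Sox18, Mmrn2 and Unc45b (r of 0.993 to 0.996). These correlations describe the split between the sorts, which the arrays share, and carry no p. Gja5 has no such list, since it was below the filter.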

How the data were processed

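RNA of 14 sorted samples was measured on Affymetrix mouse arrays, from 100 ng of total RNA per the labels' protocols. The deposited table holds 1 intensity per probe set and array on a linear scale, made with Affymetrix Expression Console 1.1 per the submitters' processing notes. The summarisation algorithm is not given in the sources used here. Trimmed means of 498.7 to 500 show that the authors' deposited intensities had been scaled, so they were not normalised again. The log2 of intensity plus 16 was taken here. An array has no read depth; its precision is limited by the number of arrays.

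The 64 control probe sets, 932 with several symbols and 9160 with none were left out, which left 34945 probe sets of 18193 symbols. Of these, probe sets were dropped whose mean log2 value lay in the dimmest fraction of 0.333 of all probe sets but the controls. The brightest probe set left stood for its gene, giving 13453 genes. Symbols are those of the platform annotation, which can be old. Tests used limma 3.58.1 (R 4.3.3), with 1 mean for each of the 4 groups, all arrays in 1 fit and a trend in the prior variance. They are 2-sided and adjusted by Benjamini and Hochberg. Differences are G-CSF minus untreated and CD31+ minus GFP+. The ± after a log2 difference is its standard error. A fold change on this scale understates that of dim genes. The script was tested on simulated data.

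Beside the 10 junction genes, the text names, per list, comparison and direction, up to 4 called genes with the largest change whose groups did not overlap, or the 2 largest of a list where none was, and the 5 genes most like Cdh5, Cldn5 and Gja5. Ctnnb1, Klf1 and the other condition's value of a gene named in one condition were added after values were seen. The members, lists and alternatives were chosen with earlier results of these data known. Replicate numbers come from the titles. Deviations of same-numbered treated and untreated arrays correlated by 0.239, 0.377, 0.281 and 0.102 in CD31+ cells and 0.223, 0.288 and 0.315 in GFP+ cells, all above 0.1, so the numbers were taken to pair the samples and used as a block in an alternative. The treated CD31+ array of number 4 correlated more, by 0.178, with another number. GFP+ replicates 2 and 3 are printed with 6 or 7 decimals and all other arrays with 1, which was tried as a batch term. The 3 prime to 5 prime ratio of actin probe sets ran from 2.62 to 3.76 in G-CSF and 3.01 to 6.57 in untreated CD31+ arrays, and from 2.71 to 10.5 in G-CSF and 3.83 to 11.0 in untreated GFP+ arrays.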

Additional observations from a re-analysis of the deposited data

Results flagged for a closer look

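Within the groups of 4 arrays, each probe set's highest and lowest array was set against the other 3 by the ratio of its gap to the whole range, over 34 groups of 4. Of these, 3 passed the 95% critical value of Dixon's test, and chance flags about 1 in 20 groups. Pecam1 read 1352 in untreated CD31+ replicate 2, against 675 to 723 in the other 3 arrays. The Jam2 probe set that spanned 363 to 1337 in G-CSF CD31+ arrays read 761.3 in the same array, against 641.3 to 656.9. The dim Cdh5 probe set read 120.7 in untreated CD31+ replicate 1, against 166.1 to 176.5. The Pecam1 difference from GFP+ cells, which the gate set, ran from 2.78 to 3.32 in untreated mice when arrays were left out in turn.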

How the results depend on the processing

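No member changed direction in a called result under any alternative, and no member was called with G-CSF in either sort under any. Between the sorts Cdh5, Cldn5, Esam, F11r and Jam2 were called under every alternative run, and Gja4 in untreated mice. So was Pecam1, whose difference the gate set and whose calls are no support. The count of called members ran from 6 to 8 after G-CSF and from 7 to 9 in untreated mice. Calls were lost for Jam3 and Tjp1 in untreated mice and for Gja4 and Tjp1 after G-CSF. With both arrays that stand apart left out (untreated CD31+ replicate 1 and untreated GFP+ replicate 2), adjusted p in untreated mice was 0.169 for Jam3 and 0.0811 for Tjp1. With decimals as a batch term, added after the data were seen, adjusted p was 0.110 for Jam3 and 0.0580 for Tjp1 in untreated mice. With array weights it was 0.105 for Jam3 in untreated mice and 0.0634 for Gja4 after G-CSF, and with the actin ratio as a covariate 0.0511 for Gja4. The replicate block changed no other call of a member, with a median change of 0.11 in CD31+ and 0.49 in GFP+ cells, and between the sorts 3.32 after G-CSF and 3.38 in untreated mice. The counts of the other junction genes moved more. The share of all genes called under each alternative is not given, so these counts describe the settings and nothing particular to these genes. In CD31+ cells with G-CSF, 1 was called, against 3 with the replicate block, 8 with array weights (4 higher, 4 lower) and 0 with median centring, an adjusted p under 0.01, a minimum log2 change of 1, the actin covariate, or both arrays that stand apart left out. Leaving out arrays in turn gave 0 to 3 there. In GFP+ cells 0 were called with G-CSF, against 1 with array weights (Cldn15), 2 with both arrays that stand apart left out, and 0 to 3 when arrays were left out in turn. The 3, without untreated replicate 2, were Cldn15, Cd34 and Icam2. A minimum log2 change of 1 left 24 called between the sorts after G-CSF and 21 in untreated mice. The cause was not tested. Probe sets near background, such as that of Gja5, limit what the arrays can show.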
